A study of Rattus norvegicus with 30 samples.

Results

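The nuclear genes of oxidative phosphorylation were compared across microglia of rats after stroke. Members were all genes whose platform symbol starts with Nduf, Sdh, Uqcr or Atp5, or with Cox followed by 4, 5, 6, 7 or 8, and each was read from its probe set with the highest mean over the 30 arrays. This rule found 83 of 14506 named genes. Of these, 37 carry the Nduf prefix of complex I, 7 belong to Sdh (complex II), 7 to Uqcr (complex III), 16 to Cox (complex IV) and 16 to Atp5 (complex V). By role, 73 are subunits, 6 are assembly factors (Ndufaf1, Ndufaf3, Ndufaf4, Sdhaf1, Sdhaf2 and Sdhaf3) and 2 are annotated pseudogenes (Ndufs6-ps1 and Cox6c-ps1). The remaining pair is Atp5if1, the inhibitor of ATP hydrolysis by complex V, and Cox7a2l, a factor that joins complexes III and IV. Ndufa4 is counted by its prefix although it is now known as a subunit of complex IV.

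Male rats of 12 or 3 months underwent 75 min of transient occlusion of the middle cerebral artery under 1.2% isoflurane, and microglia were taken 14 or 3 days later from the ipsilateral (injured) or the contralateral (opposite) hemisphere. Sham rats of both ages were the controls. This gave 10 groups of 3 arrays: at each age ipsilateral day 14, contralateral day 14, ipsilateral day 3, contralateral day 3 and sham. The labels conflict on the strain that all groups share: the sample characteristics name Wistar Kyoto and the protocols name spontaneously hypertensive rats. The sources used here state neither how the cells were isolated nor which hemisphere of sham rats was used. The 2 hemispheres of a stroke rat are paired through the sample codes (12 animals), whereas nothing says that the sham samples came from separate animals, so p-values against sham reflect the spread among these samples alone.

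Oxidative phosphorylation takes place in the inner mitochondrial membrane. Complex I and complex II feed electrons from NADH and succinate into ubiquinone, complex III passes them to cytochrome c, complex IV hands them to oxygen, and complex V uses the resulting proton gradient to make ATP. Most subunits come from nuclear genes, and the remainder from mitochondrial DNA under other symbols, which are no members here. Macrophages and microglia use both respiration and glycolysis, and activated cells are known to change the balance between them.

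Values are log2 signals, so a difference of 1 is a doubling of signal, and levels of different probe sets are not compared with one another. On the arrays, 82 members passed a filter that required a value above the array's 30th percentile on at least 3 arrays, and 78 exceeded it on all 30 arrays. Cox8b, a heart and muscle isoform in rodents, did not pass and was at or below that percentile on every array. Ndufaf1 was above it on 11 arrays, Cox8c on 12, Cox6c-ps1 on 14 and Cox4i2 on 3. Differences are given with their standard error from limma, fitted on all 11675 genes that passed, and a gene was called at a Benjamini-Hochberg adjusted p under 0.05. The number of arrays limits the precision.

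The arrays were checked against cell type markers. All 9 measured microglial genes were above the 30th percentile on every array, with medians over the arrays from 8.38 (Tmem119, 6.77 to 9.35) to 11.79 (P2ry12, 10.84 to 12.08). P2ry13 ranged from 8.70 to 10.78 and Cx3cr1 from 11.12 to 11.95. Markers of other cells were mixed. Lyve1 and Folr2 of border macrophages were above the 30th percentile on every array (medians 8.12 and 6.74). Pecam1 of endothelium (8.35) and Acta2 of pericytes (7.97) were so too. Other genes of these lists had medians from 4.23 (Rgs5) to 5.88 (Cdh5). The T and NK cell genes were low, from Lck, at or below that percentile on 9 arrays, to Cd3g, on all 30. Of the B cell genes Ms4a1 was so on all 30 and Cd79b on none (5.33 to 6.84), and of the neuronal genes Syt1 was so on all 30, Nefl on 8 and Snap25, Rbfox3 and Stmn2 on none. Of the oligodendrocyte genes Mbp ran from 7.02 to 8.08, while Mog, Mag and Mobp had medians of 4.79, 4.65 and 5.27. The neutrophil genes S100a8, S100a9 and Csf3r ran from 6.06 to 11.09, from 6.53 to 11.43 and from 8.58 to 9.36. Other neutrophil genes were lower, with Camp from 4.99 to 8.36 and Elane from 4.53 to 5.31. Cxcr2 was at or below the 30th percentile on 26 arrays and Mpo on 7. Stroke arrays of 3-month rats had a narrower spread of values over the array (SD 1.79 to 1.93) than all others (1.94 to 2.05), which touches the comparisons of these groups with sham.

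Members of all 5 complexes were higher in the ipsilateral than in the contralateral hemisphere at both ages and on both days. In 12-month rats on day 14, 52 of the 82 members were called higher and 1 lower, against 10.9% and 5.94% of all genes tested. On day 3 at that age 73 members were called higher and none lower against 18.7% and 10.0% of all genes; at an unadjusted limma p under 0.05 the counts were 73 and none, against 22.7% and 15.1%. At 3 months, 66 were called higher and 1 lower on day 14 (13.2% and 7.09% of all genes), and 67 higher and 1 lower on day 3 (11.5% and 8.95%). The members' median differences were 0.37, 0.63, 0.51 and 0.54 in this order, or 1.29, 1.55, 1.42 and 1.45 times, while the median of all genes was -0.01 in each. A changed share of a cell type and a changed RNA level per cell cannot be told apart in such bulk samples.

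Of the 82 members, 50 were called higher in all 4 hemisphere comparisons, against 4.87% of all genes, and 74 had a difference above 0 in all 4, against 22% of all genes. A further 12 were called in 3 of the comparisons, 10 in 2, 2 in 1 and 8 in none. The 8 were Cox4i2, Cox6b2, Cox8c and Cox6c-ps1 of complex IV and the assembly factors Ndufaf3, Ndufaf4, Sdhaf1 and Sdhaf3. Every ipsilateral array lay above every contralateral array for 64 members at 12 months on day 14 (17.7% of all genes did so), for 73 on day 3 (25.6%), for 67 at 3 months on day 14 (17.4%) and for 65 on day 3 (15.5%).

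**Figure D1:**
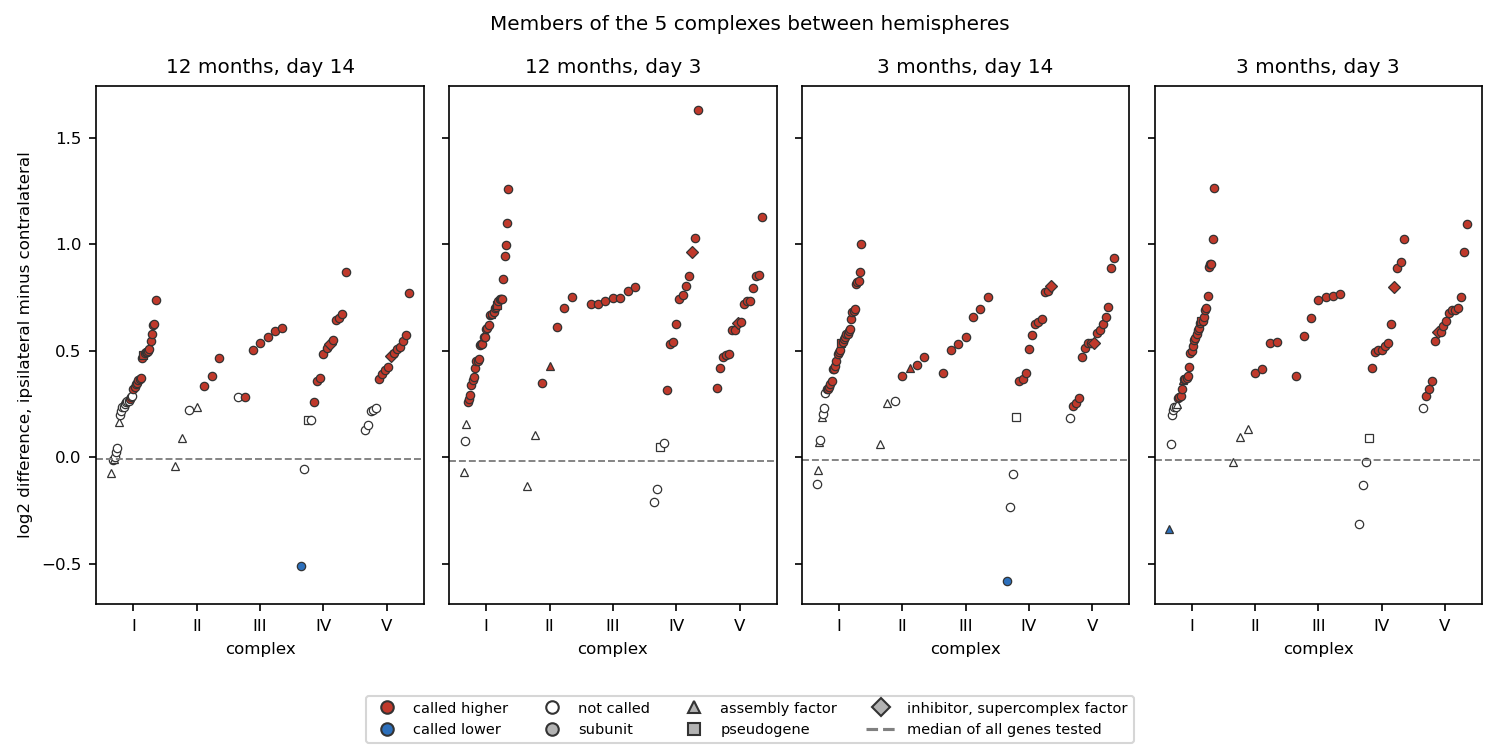
Each point is 1 of 82 members, placed by complex (horizontal axis) and by its log2 difference, ipsilateral minus contralateral, in the 4 comparisons; red marks members called higher, blue called lower and white not called, and shapes mark the kind of gene. Nearly all members of complexes III and V lie above the dashed median of all genes, and the members at or below it are mostly assembly factors and isoforms of complex IV.

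The complexes differed in how many members were called. Complex III, the cytochrome bc1 complex, had 6 of 7 members higher at 12 months on day 14 and 7 of 7 in each of the other comparisons, with differences of 0.72 to 0.80 at 12 months on day 3. Complex V had 11, 16, 15 and 15 of 16 higher at 12 months on days 14 and 3 and at 3 months on days 14 and 3. In the same order complex I had 21, 34, 29 and 30 of 37 higher, complex IV 11 of 15 each time, and complex II 3, 5, 4 and 4 of 7. Median differences by complex were 0.32, 0.60, 0.50 and 0.50 for complex I, 0.24, 0.43, 0.38 and 0.40 for complex II and 0.54, 0.75, 0.56 and 0.74 for complex III. They were 0.49, 0.63, 0.51 and 0.51 for complex IV and 0.42, 0.64, 0.54 and 0.63 for complex V. Whether complexes differ from one another was not tested. Of the 7 Sdh genes, 3 are assembly factors rather than subunits.

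Members were also counted by role, with no test between roles. Of 72 subunits 49, 68, 62 and 63 were called higher in the 4 comparisons, and 47 were called in all 4. The 6 assembly factors had 0, 2, 1 and 1 called higher and 0, 0, 0 and 1 called lower (limma). These counts lie near the shares of all genes given above, the medians were 0.04, 0.13, 0.13 and 0.12, and Ndufaf1 was above the 30th percentile on 11 arrays only. Sdhaf2, which attaches the flavin cofactor to complex II, was higher by 0.43 at 12 months on day 3 and by 0.42 at 3 months on day 14. Of 22 further assembly factors whose symbols the rule does not take, 2, 9, 6 and 3 were higher and 0, 1, 0 and 0 lower. The shares of all genes were 10.9%, 18.7%, 13.2% and 11.5% higher and 5.94%, 10.0%, 7.09% and 8.95% lower. The first and last counts called higher lie near these shares. Coa3, which takes part in complex IV assembly, was higher by 0.57, 0.65 and 0.53 (each ± 0.12) in the last 3 comparisons.

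**Figure D2:**
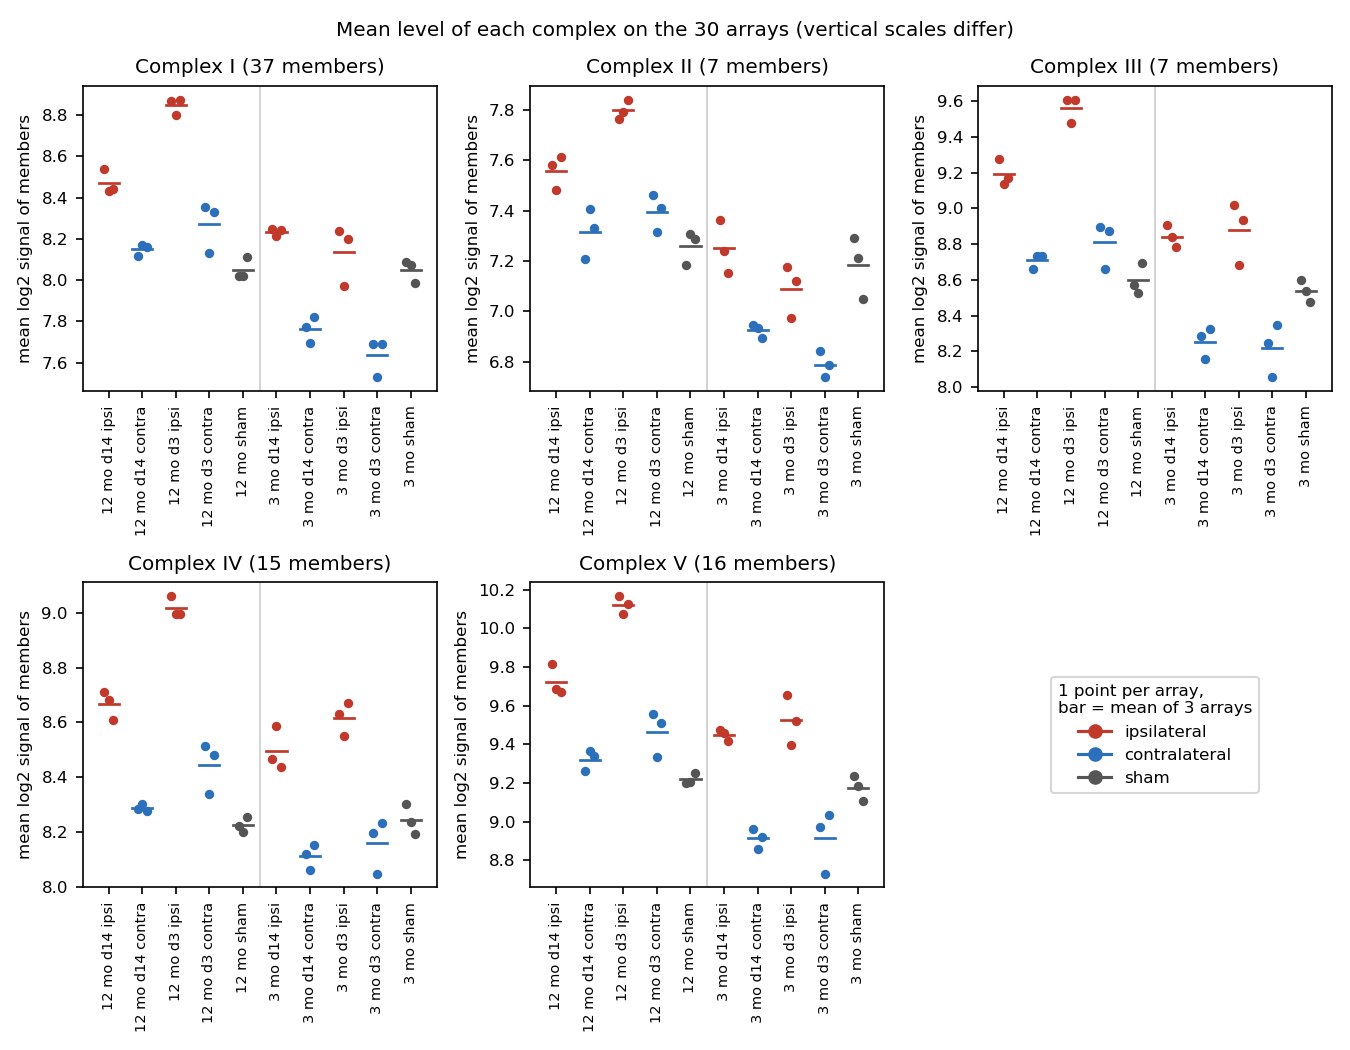
Each point is the mean log2 signal of a complex's members on 1 array and each bar the mean of 3 arrays, for the 10 groups, with 12-month rats left of 3-month rats. In every complex the 3 ipsilateral arrays lie above the 3 contralateral arrays of the same age and day, and the ipsilateral arrays of 12-month rats on day 3 are the highest.

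Over all 10 groups, the mean level of every complex was highest in ipsilateral microglia of 12-month rats on day 3. Complex I averaged 8.85 ± 0.04 there (SD, n = 3 arrays, as for all levels in this paragraph), and complex V 10.12 ± 0.05. The lowest group was the contralateral one of 3-month rats, on day 3 for complexes I (7.64 ± 0.09), II (6.79 ± 0.05), III (8.22 ± 0.15) and V (8.91 ± 0.16), and on day 14 for complex IV (8.11 ± 0.04). The span from highest to lowest group was 1.21 for complex I, 1.01 for II, 1.34 for III, 0.91 for IV and 1.21 for V. These spans shrank under other scalings of the arrays, to 0.82, 0.77, 0.96, 0.71 and 0.87 with quantile normalization.

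The 12-month groups kept 1 order in all 5 complexes: ipsilateral day 3, ipsilateral day 14, contralateral day 3, contralateral day 14 and sham. For complex III these levels were 9.56 ± 0.07, 9.19 ± 0.07, 8.81 ± 0.13, 8.71 ± 0.04 and 8.60 ± 0.09. The lower neighbours were close: contralateral day 14 arrays lay between 8.66 and 8.74, and sham arrays between 8.53 and 8.70, so these overlapped. At 3 months complex III stood at 8.88 ± 0.18 (ipsilateral day 3), 8.84 ± 0.06 (ipsilateral day 14), 8.54 ± 0.06 (sham), 8.26 ± 0.09 (contralateral day 14) and 8.22 ± 0.15 (contralateral day 3). Here the arrays of the 2 days overlapped within each hemisphere, and sham lay between the hemispheres. Other complexes differed in this. The ipsilateral day 3 mean of complex II (7.09 ± 0.10) was below sham (7.18 ± 0.12), but the arrays overlapped (6.97 to 7.17 against 7.05 to 7.29). With the subunits of complex II alone these means were 8.35 and 8.37. The ipsilateral day 3 arrays of complex I (7.97 to 8.24) overlapped those of sham (7.98 to 8.09). In complex IV the contralateral day 3 arrays (8.05 to 8.23) overlapped sham (8.19 to 8.30).

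Within single animals the mean of all members was higher ipsilaterally in 12 of 12 rats. The mean difference per animal was 0.46, 0.29 and 0.32 at 12 months on day 14 and 0.54, 0.68 and 0.56 on day 3. At 3 months it was 0.47, 0.53 and 0.40 on day 14 and 0.55, 0.49 and 0.48 on day 3.

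Among complex I genes, Ndufs5, an accessory subunit, had the largest mean difference. Its ipsilateral arrays read 9.06, 8.97 and 9.18 at 12 months on day 3, against 8.18, 7.64 and 8.09 contralaterally. On day 14 the ipsilateral arrays read 8.38, 8.29 and 8.19, against 7.47, 7.61 and 7.57. At 3 months they read 7.91, 7.80 and 7.87 on day 14, against 6.99, 6.40 and 7.18. On day 3 at that age they read 8.02, 7.66 and 7.92, against 6.74, 6.39 and 6.68, and in none of the 4 pairs did the groups overlap. The differences were 0.74 ± 0.15 at 12 months on day 14 (limma adjusted p = 0.000613), 1.10 ± 0.15 on day 3 (1.67e-06), 1.00 ± 0.15 at 3 months on day 14 (1.18e-05) and 1.26 ± 0.15 on day 3 (3.08e-07). A second probe set of the gene gave 0.70, 1.02, 0.83 and 0.90 in the same order.

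Ndufaf4, an assembly factor of complex I, had the smallest mean difference in that complex. At 3 months on day 3 its ipsilateral arrays read 8.19, 8.06 and 8.34, against 8.49, 8.52 and 8.57 contralaterally, with no overlap, and it was the member called lower there (-0.33 ± 0.09, adjusted p = 0.00838). In the other comparisons it was not called, at 0.17 ± 0.09, -0.07 ± 0.09 and 0.07 ± 0.09 (12 months on days 14 and 3, 3 months on day 14). The call was lost when only the arrays compared were fitted (adjusted p = 0.0576) and without ipsilateral replicate 2 (-0.27, adjusted p = 0.0672).

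In complex II, Sdhb, the iron-sulfur subunit of succinate dehydrogenase, changed most. Its arrays at 12 months on day 3 read 9.72, 9.74 and 9.88 ipsilaterally, against 9.20, 8.82 and 9.06 contralaterally. At 3 months on day 3 they read 9.35, 9.18 and 9.35, against 8.82, 8.65 and 8.79. The groups did not overlap in either pair. The 4 differences were 0.38 ± 0.09, 0.75 ± 0.09, 0.47 ± 0.09 and 0.54 ± 0.09, with adjusted p = 0.00307, 2.38e-07, 0.000356 and 5.56e-05. Sdhaf3, an assembly factor that serves Sdhb, stood at -0.04, -0.14, 0.06 and -0.02 (each ± 0.10) and was called nowhere.

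In complex III, the small subunit Uqcr11 led and the core subunit Uqcrc1 came last. Uqcr11 read 10.78, 10.61 and 10.86 ipsilaterally at 12 months on day 3, against 10.02, 9.86 and 10.02 contralaterally, and 10.50, 10.33 and 10.38 on day 14, against 9.74, 9.90 and 9.78. At 3 months it read 9.83, 9.57 and 9.64 on day 14, against 9.05, 8.80 and 8.93, and 10.00, 9.46 and 9.91 on day 3, against 9.04, 8.78 and 9.28. No pair of groups overlapped, and the differences in the order 12 months day 14, day 3, 3 months day 14, day 3 were 0.60, 0.78, 0.75 and 0.76 (each ± 0.12, adjusted p = 0.000419, 6.33e-06, 1.88e-05 and 1.56e-05). Uqcrc1 differed by 0.28, 0.72, 0.40 and 0.38 (each ± 0.09, adjusted p = 0.0286, 4.17e-07, 0.00189 and 0.0025). Its call at 12 months on day 14 was lost with quantile normalization (0.23, adjusted p = 0.0645), and without ipsilateral replicate 1 or 3 or contralateral replicate 1 or 2 (adjusted p up to 0.126).

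In complex IV the largest and the smallest mean difference belonged to isoforms of restricted expression, and the largest was below those of Ndufs5 and Atp5po. Cox6a2, the isoform of subunit VIa that is known from heart and skeletal muscle, read 8.09, 8.07 and 7.76 ipsilaterally at 12 months on day 3, against 6.17, 6.23 and 6.61 contralaterally. On day 14 it read 7.23, 6.99 and 6.60, against 5.97, 6.24 and 5.99. At 3 months it read 6.44, 7.22 and 6.80 on day 14, against 6.33, 6.23 and 6.19, and 6.50, 7.10 and 7.20 on day 3, against 6.40, 6.35 and 6.55. Only the last pair overlapped, and sham arrays were lower still at 3 months (5.87, 5.97 and 5.96).

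The Cox6a2 differences were 0.87 ± 0.17 (adjusted p = 0.000365), 1.63 ± 0.17 (1.38e-08), 0.57 ± 0.17 (0.0158) and 0.50 ± 0.17 (0.0375). At 3 months the day 14 call was lost without ipsilateral replicate 2 (0.37, adjusted p = 0.147) or contralateral replicate 3 (0.54, 0.0519). The day 3 call was lost without ipsilateral replicate 2 or 3 or contralateral replicate 1 or 2 (0.36 to 0.48, adjusted p up to 0.197). The ubiquitous isoform Cox6a1 differed by 0.49, 0.54, 0.40 and 0.54 (each ± 0.08) and was called each time. Next to Cox6a2 in the RefSeq annotation of GRCr8 lies Itgad, an integrin gene of macrophages, which was not called in any of the 4 comparisons (0.09, 0.06, 0.04 and -0.02). Among other tested neighbours, Itgam was higher in 3 of the 4 (0.44, 0.15, 0.60 and 0.22, adjusted p = 7.03e-05, 0.152, 7.36e-07 and 0.0414), and Armc5 was lower on day 3 at 12 months (-0.38, adjusted p = 0.0185) and at 3 months (-0.42, 0.0122).

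Cox6b2, the isoform of subunit VIb known from testis, was the one subunit called lower. On day 14 its ipsilateral arrays read 6.62, 7.29 and 6.99 at 12 months, against 7.51, 7.48 and 7.44 contralaterally, and 6.72, 6.72 and 6.53 at 3 months, against 7.00, 7.35 and 7.36. On day 3 they read 7.58, 7.80 and 7.48 at 12 months, against 7.90, 7.58 and 7.81, and 6.96, 6.87 and 7.58 at 3 months, against 7.44, 7.32 and 7.58. The groups were separate on day 14 and overlapped on day 3. The differences were -0.51 ± 0.16 (adjusted p = 0.0211) and -0.58 ± 0.16 (0.00785) on day 14 at 12 and 3 months, and -0.15 ± 0.16 and -0.31 ± 0.16 on day 3, which were not called. At 12 months on day 14 the call was lost without ipsilateral replicate 1 (-0.34, adjusted p = 0.201) and without contralateral replicate 1 (-0.49, 0.0623) or 2 (-0.51, 0.054).

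Other isoforms with restricted expression stayed low. Cox4i2, known from lung, was called nowhere (0.18, 0.07, -0.23 and -0.13, each ± 0.15) and was above the 30th percentile on 3 of 30 arrays, whereas the common isoform Cox4i1 was higher by 0.64, 0.75, 0.78 and 0.89 (each ± 0.09, adjusted p at most 2.92e-06). Cox8a, the common isoform of subunit VIII, was higher by 0.67, 0.63, 0.65 and 0.50 (each ± 0.10). Cox7a2 was higher by 0.36, 0.81, 0.51 and 0.63 (each ± 0.08), and Cox7a2l by 0.53, 0.97, 0.81 and 0.80 (each ± 0.11). Ndufa4 was higher by 0.34, 0.53, 0.42 and 0.37 (each ± 0.10).

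In complex V, Atp5po, the peripheral stalk subunit that gives the enzyme its sensitivity to oligomycin, changed most. At 12 months it read 9.33, 9.05 and 9.14 ipsilaterally on day 14, against 8.78, 8.64 and 8.46 contralaterally, and 9.99, 9.81 and 9.93 on day 3, against 8.88, 8.55 and 8.90. At 3 months it read 9.13, 9.07 and 9.04 on day 14, against 8.23, 7.88 and 8.33, and 9.10, 8.78 and 9.06 on day 3, against 7.97, 7.73 and 7.95. All 4 pairs were separate, with differences of 0.55 ± 0.11 (adjusted p = 0.000767), 1.13 ± 0.11 (7.04e-09), 0.94 ± 0.11 (4.21e-07) and 1.10 ± 0.11 (2.73e-08). Atp5f1c, the central shaft subunit, had the smallest values (0.13, 0.33, 0.18 and 0.23, each ± 0.09) and was called at 12 months on day 3 (adjusted p = 0.00377).

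**Figure D3:**
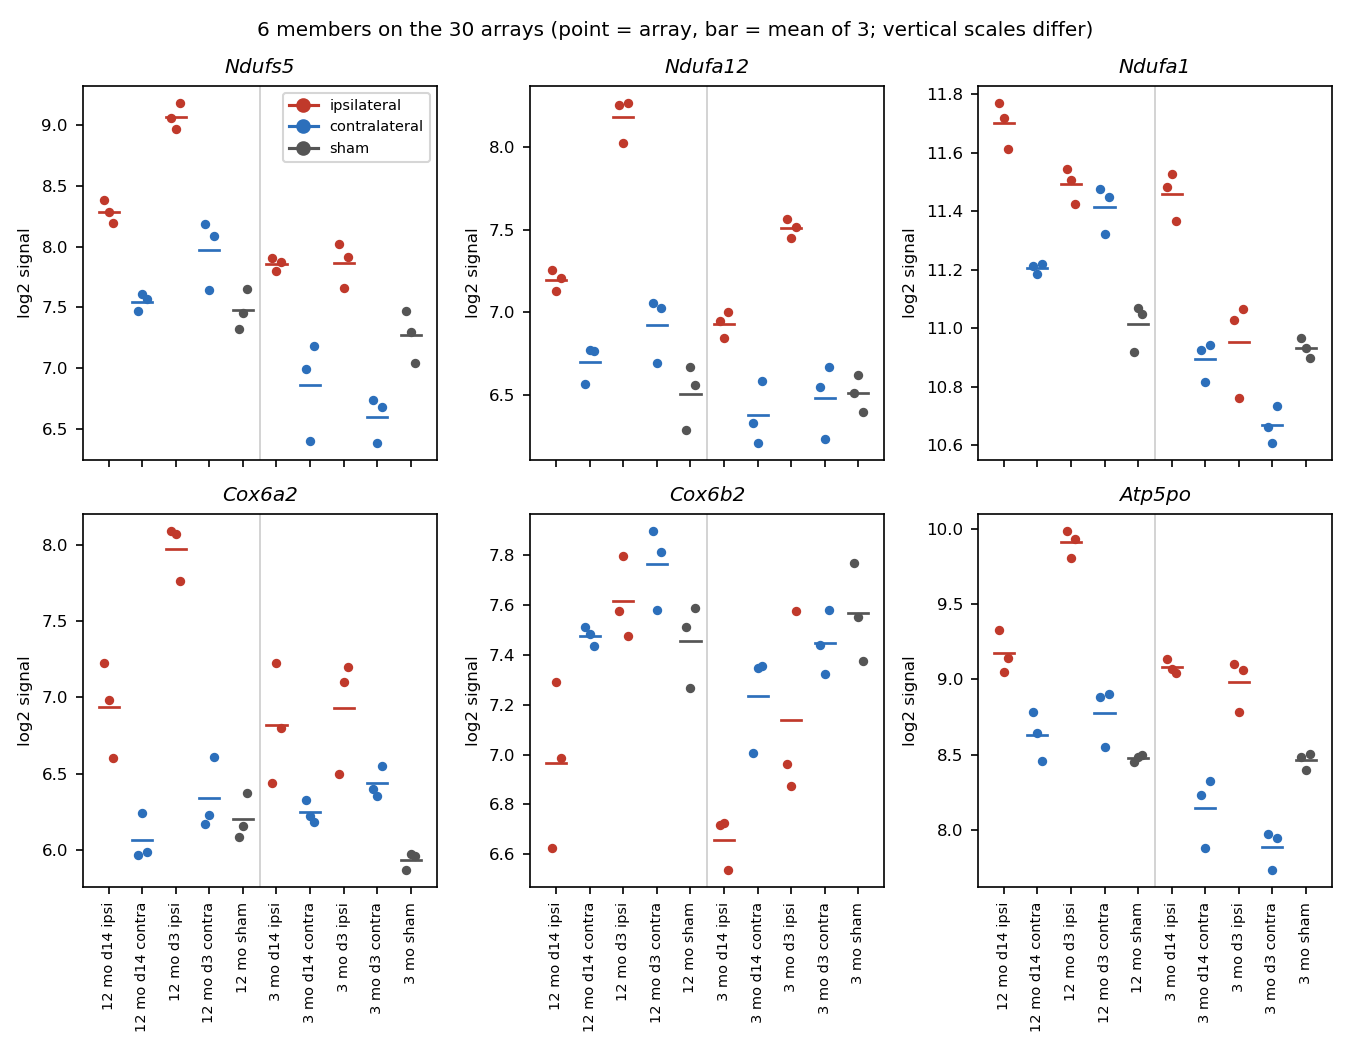
Each point is the log2 signal on 1 array and each bar the mean of 3 arrays, for 6 members over the 10 groups (vertical scales differ). Ndufs5, Ndufa12, Cox6a2 and Atp5po are highest on the ipsilateral arrays of 12-month rats on day 3, Ndufa1 on those of day 14, and Cox6b2 is lower ipsilaterally on day 14 at both ages.

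The members' promoters were searched for motifs of factors known to act on nuclear genes for oxidative phosphorylation. As the motifs were picked for this gene class, their excess over all promoters says nothing of the hemisphere differences. A link between motifs and differences was not tested. Promoters of RefSeq (GRCr8), from 250 bases before to 50 after the start, were found for 73 of the 83 members. The NRF1 motif GCGCANGCG was in 26.0% of them and in 6.26% of all 27457 promoters of the table. The Ets motif CCGGAAG, bound by GABPA, was in 32.9% against 9.22%. The YY1 motif AANATGGC was in 34.2% against 7.36%. The Sp1 motif GGGCGG was in 46.6% against 34.9%, and the motif TCAAGGTCA of estrogen-related receptors in 2.74% against 0.412%. Both strands were read, and a match is a description of letters, not of a bound site. By complex, NRF1 matches were in 9 of 34 promoters of complex I, 2 of 7 of II, 1 of 5 of III, 1 of 12 of IV and 6 of 15 of V.

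The promoters of 5 members are shown to compare the leading member of complexes I, II and V with the pair of complex IV isoforms that moved in opposite directions. Each stretch runs from 150 bases before to 30 after the start, 5′ to 3′ on the gene's strand, with motif matches in capitals. Ndufs5 lies at chr5:141264373-141264552 (minus strand) and holds 1 NRF1 match. Sdhb lies at chr5:158547784-158547963 (plus) and holds an Ets match before and a YY1 match after the start. Atp5po lies at chr11:44657454-44657633 (minus) and holds NRF1 matches on both strands that overlap in a run of 10 bases before the start, and a YY1 match after it. Cox6a2, at chr1:192219687-192219866 (minus), and Cox6b2, at chr1:78122721-78122900 (plus), hold none of the 5 motifs in these windows. Other members share this: 12 of the 73 members, Cox6a2 and Cox6b2 included, had no match in 300 bases. Among them were Atp5f1d, Cox7c, Ndufa4 and Ndufb2, which were called higher in all 4 comparisons.
Ndufs5: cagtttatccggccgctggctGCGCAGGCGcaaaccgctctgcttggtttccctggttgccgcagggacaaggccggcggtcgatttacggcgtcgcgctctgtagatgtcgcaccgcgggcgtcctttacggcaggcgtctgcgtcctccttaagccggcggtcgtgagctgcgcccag
Sdhb: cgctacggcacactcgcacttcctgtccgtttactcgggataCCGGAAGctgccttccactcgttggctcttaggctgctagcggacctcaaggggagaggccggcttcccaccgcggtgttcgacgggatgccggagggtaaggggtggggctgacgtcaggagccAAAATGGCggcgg
Atp5po: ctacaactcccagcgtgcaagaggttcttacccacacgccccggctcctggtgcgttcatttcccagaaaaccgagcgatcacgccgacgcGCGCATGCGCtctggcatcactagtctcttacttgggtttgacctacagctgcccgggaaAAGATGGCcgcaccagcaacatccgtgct
Cox6a2: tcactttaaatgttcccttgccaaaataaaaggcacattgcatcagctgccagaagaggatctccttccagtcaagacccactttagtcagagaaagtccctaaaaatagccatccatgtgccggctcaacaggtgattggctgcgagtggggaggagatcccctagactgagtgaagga
Cox6b2: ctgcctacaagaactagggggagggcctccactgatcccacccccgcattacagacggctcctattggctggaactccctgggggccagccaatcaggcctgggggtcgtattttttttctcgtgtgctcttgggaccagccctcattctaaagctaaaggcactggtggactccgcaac

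Genes upstream and downstream of the complexes were counted from lists in the same 4 comparisons (12 months on day 14, day 3, then 3 months on day 14, day 3). Of all genes, 10.9%, 18.7%, 13.2% and 11.5% were called higher there and 5.94%, 10.0%, 7.09% and 8.95% lower. Of 10 genes of the tricarboxylic acid cycle, which makes NADH and succinate, 4, 8, 6 and 3 were higher and none lower. Suclg1, a subunit of succinyl-CoA synthetase, was higher by 0.41, 0.59, 0.67 and 0.58 (each ± 0.09). Of 8 electron carriers and transporters 2, 6, 4 and 4 were higher and none lower, with Vdac1, the outer membrane channel, at 0.51, 1.13, 0.57 and 0.80 (each ± 0.09). Of 50 mitochondrial ribosomal proteins 13, 34, 23 and 23 were higher and none lower. 

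Glycolytic genes and regulators were counted in the same way, against the same shares of all genes. Of 19 glycolytic genes 6, 10, 6 and 7 were higher and 1, 1, 3 and 1 lower. Of 12 measured regulators of mitochondrial gene expression 1, 2, 2 and 0 were higher and 1, 1, 1 and 2 lower, near the shares of all genes. Ppargc1b, a coactivator of mitochondrial genes, was higher by 0.86 ± 0.12, 0.55 ± 0.12 and 0.50 ± 0.12 in the first 3. Myc was lower by -0.54 ± 0.09, -0.38 ± 0.09 and -0.41 ± 0.09 in the first, second and last.

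**Figure D4:**
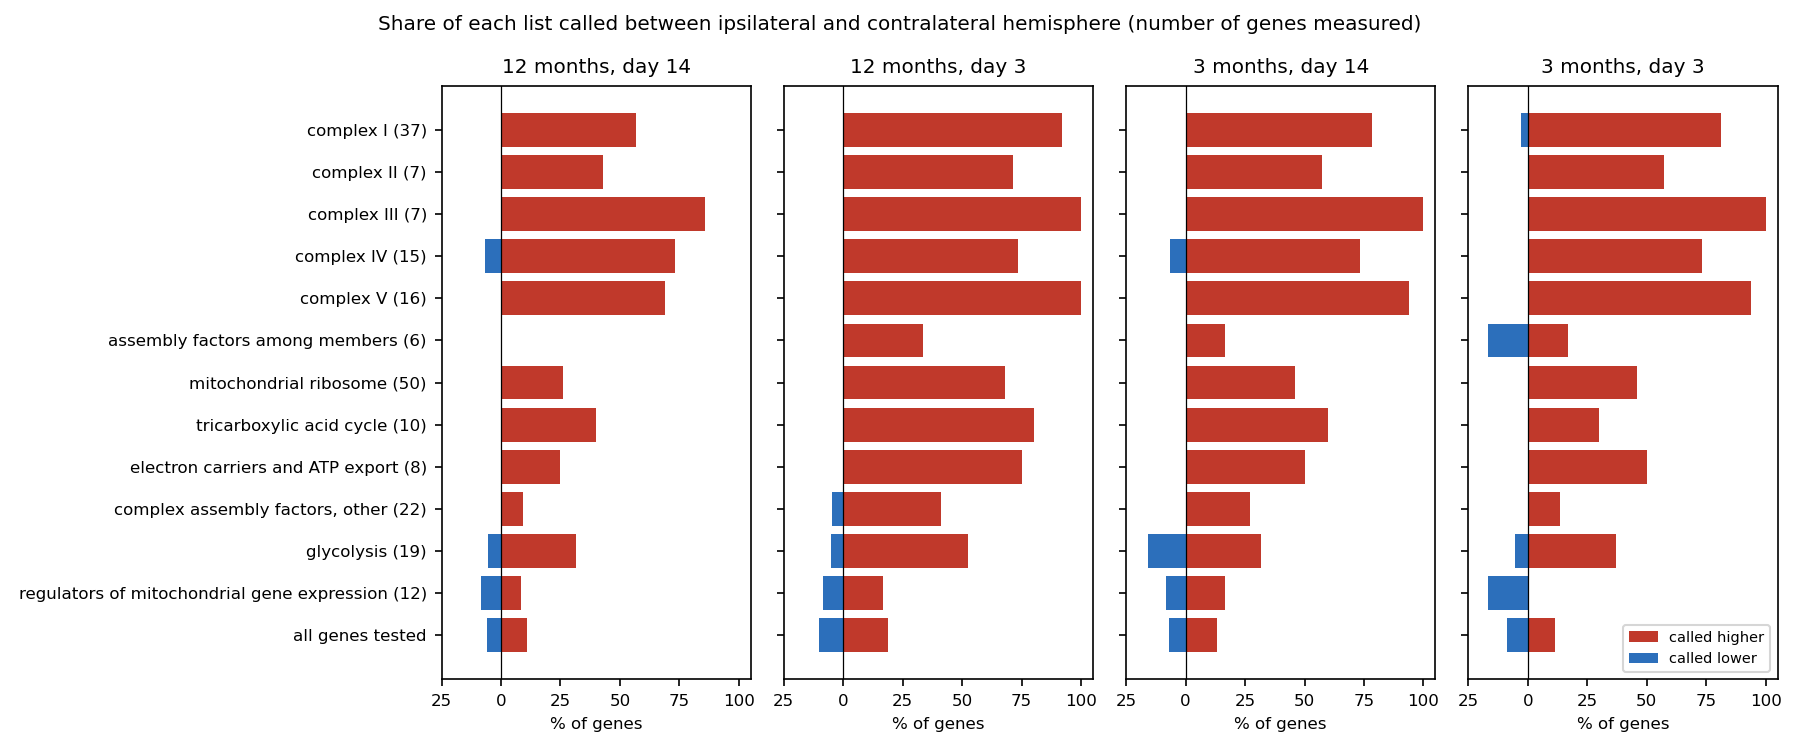
Bars give the percent of each list called higher (red, to the right) or lower (blue, to the left) between the ipsilateral and the contralateral hemisphere, with the number of genes measured in parentheses. Complex III has the highest share called higher in each panel, equalled by complex V at 12 months on day 3, and the list of regulators has few genes called higher.

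Markers of other cell types and of proliferation moved in the same comparisons, for which the shares of all genes are given above. Of 9 measured monocyte and macrophage genes 5, 8, 5 and 9 were higher and none lower. Their summed linear signal was 2456 to 4262 ipsilaterally against 2183 to 2662 contralaterally at 12 months on day 14, and 4222 to 4660 against 2088 to 2452 on day 3. At 3 months it was 3213 to 3488 against 2221 to 2396 on day 14, and 3931 to 6400 against 2209 to 2680 on day 3. Lyz2 was the largest term of this sum on every array (log2 signal 10.68 to 11.89, median 11.10), ahead of Vim (7.04 to 10.02). Ly6c of this list was at or below the 30th percentile on 29 arrays. Of 9 microglial genes 6, 7, 6 and 7 were lower and 1, 0, 1 and 1 higher. Their summed signal was 12980 to 14290 against 18450 to 19450, 13480 to 14990 against 18500 to 19790, 12300 to 14230 against 16330 to 16600 and 11420 to 13090 against 16850 to 18260, ipsilateral against contralateral in the order of the 4 comparisons. Of 21 cell cycle genes 4, 19, 0 and 15 were higher and 1, 0, 1 and 1 lower, of 4 border macrophage genes 1, 4, 1 and 3 were higher and 1, 0, 1 and 0 lower, and of 7 neutrophil genes 0, 1, 0 and 3 were higher and 1, 0, 2 and 0 lower. No gene of the T and NK cell, B cell, oligodendrocyte, astrocyte, neuron, pericyte or ependyma lists was called higher by limma, and 2 of 4 endothelial genes were, at 12 months on day 3. The part of these shifts in the members' differences was not tested.

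In comparison with sham, ipsilateral members were mostly higher. At 12 months, 60 members were higher and 1 lower in ipsilateral microglia on day 14 (11.9% and 8.09% of all genes), with a median of 0.49, and 73 were higher and none lower on day 3 (22.7% and 14.3%), with a median of 0.85 (at an unadjusted p under 0.05, 74 and none, against 25.4% and 19.6% of all genes). At 3 months, 35 were higher and 4 lower on day 14 (11.0% and 23.4%), with a median of 0.23, and 39 were higher and 10 lower on day 3 (20.9% and 35.9%), with a median of 0.20. With quantile normalization the medians at 3 months were 0.38 on day 14 and 0.47 on day 3, and those at 12 months 0.43 and 0.68. The splits at 3 months were then 52 higher and 1 lower on day 14 and 59 higher and 0 lower on day 3. The medians of all genes at 3 months were then -0.02 and -0.01. The shares of all genes above are those without this scaling. A difference between ages in these comparisons was not tested. Cox6a2 was higher in ipsilateral microglia than in sham in all 4 cases (0.73, 1.77, 0.89 and 1.00, each ± 0.17), and Uqcr11 too (0.67, 1.01, 0.67 and 0.78, each ± 0.12). Cox6b2 was lower by -0.49, -0.91 and -0.43 (each ± 0.16) except at 12 months on day 3 (0.16 ± 0.16). The hemisphere and sham comparisons share their ipsilateral arrays.

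In the contralateral hemisphere at 12 months few members were called against sham. On day 14 the median was 0.10 and limma called none (0.00857% of all genes higher and 0% lower). Without adjustment 10 were higher and none lower, against 2.92% and 4.07% of all genes. On day 3 the median was 0.23, against 0.00 for all genes, and 5 members were called higher (1.16%) and none lower (0.128%). At an unadjusted p, 45 of the 82 were higher and none lower, against 6.52% and 3.46% of all genes. The 5 were Atp5me, Ndufa11, Ndufa2, Ndufa1 and Cox4i1, at 0.36 to 0.45. That count depended on single libraries and ran from 0 without contralateral replicate 1 to 14 without contralateral replicate 2.

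At 3 months, 1 member was called higher and 37 lower in contralateral microglia than in sham on day 14 (10.4% and 28.4% of all genes), and 2 higher and 52 lower on day 3 (14.4% and 37.2%). The medians were -0.23 and -0.33, and -0.02 and -0.03 with quantile normalization. By complex, 18 of 37 members of I, 3 of 7 of II, 3 of 7 of III, 3 of 15 of IV and 10 of 16 of V were lower on day 14. With quantile normalization the split was 4 higher and 14 lower on day 14 and 15 higher and 16 lower on day 3. The medians of all genes were then -0.02 and -0.03, as for the members. Centring each array on its median gave 6 higher and 34 lower on day 3. The shares of all genes above are those without these scalings. At this age the sham, day 14 and day 3 samples each carry their own number in the sample codes. The sources used here do not explain it, and it cannot be told apart from the group. Both hemispheres of an animal have the same number.

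At 12 months, ipsilateral levels of the members were lower on day 14 than on day 3. On day 14, 58 of 82 members were lower than on day 3 and none higher (14.1% and 6.53% of all genes), with a median of -0.36 against 0.00 for all genes; at an unadjusted p 62 were lower and 2 higher, against 19.3% and 12% of all genes. Cox6a2 fell by 1.03 ± 0.17, Ndufa12 by 0.99 ± 0.12, Cox7b by 0.81 ± 0.11 and Ndufs5 by 0.78 ± 0.15. Ndufa1 differed in the other direction without being called (0.21 ± 0.08, adjusted p = 0.0704). In contralateral microglia of that age no member was called by limma (0.137% of all genes higher and 0.925% lower), and 12 were lower and none higher when p was not adjusted, against 6.35% and 3.43% of all genes.

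At 3 months, 9 members were higher and 7 lower on day 14 than on day 3 ipsilaterally (22.0% and 7.51% of all genes). The 9 were all complex I genes, and 9 of 37 lies near the share of all genes called higher. Among them were Ndufa1 at 0.51, Ndufa9 at 0.45 and Ndufaf4 at 0.44, and Ndufa12 at -0.58 was among the 7. Contralaterally 6 were higher and 2 lower (8.31% and 1.84%). Centring or quantile normalization turned these splits to 5 higher with 11 or 13 lower ipsilaterally and to 1 or 4 higher with 7 or 8 lower contralaterally. The shares of all genes above are those without these scalings. Days at 3 months also differ in the number of the sample codes, as above.

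The hemisphere difference itself was compared between days and ages, within which a shift common to both hemispheres cancels. At 12 months it was smaller on day 14 than on day 3 for 7 members and larger for 1, against 3.59% and 1.75% of all genes. The members' median was -0.23 and that of all genes -0.01. Ndufa12, an accessory subunit of complex I, read 7.25, 7.13 and 7.21 ipsilaterally on day 14, against 6.56, 6.77 and 6.76 contralaterally, and 8.26, 8.02 and 8.27 on day 3, against 7.05, 6.69 and 7.02. Its hemisphere difference was 0.50 on day 14 and 1.26 on day 3, which differ by -0.76 ± 0.17 (limma adjusted p = 0.00433).

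The other members with a smaller difference on day 14 at 12 months were Ndufaf1 (-0.75 ± 0.18, adjusted p = 0.012), Cox7a2 (-0.45 ± 0.12, 0.0196), Atp5f1a (-0.62 ± 0.16, 0.0212), Atp5po (-0.59 ± 0.16, 0.027), Uqcrc1 (-0.44 ± 0.13, 0.0428) and Cox7b (-0.51 ± 0.16, 0.0494). Atp5f1a is the alpha subunit of the catalytic head of complex V and Cox7b a small structural subunit of complex IV. Atp5f1a read 9.68, 9.24 and 9.42 ipsilaterally on day 14, against 9.15, 9.21 and 9.27, and 10.21, 10.05 and 10.30 on day 3, against 9.47, 9.20 and 9.33, so its hemispheres overlapped on day 14 and were separate on day 3. Cox7b read 9.43, 9.40 and 9.36 against 8.83, 8.95 and 8.88 on day 14, and 10.26, 10.23 and 10.15 against 9.44, 8.97 and 9.13 on day 3. Ndufaf1, an assembly factor of complex I, read 4.02, 4.21 and 4.14 against 4.43, 3.98 and 4.18 on day 14, and 4.87, 4.96 and 4.60 against 4.10, 4.18 and 4.13 on day 3, close to the 30th percentile of the arrays (4.07 to 4.35).

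Ndufa1, an X-linked accessory subunit needed for complex I assembly, was the member with a larger difference on day 14. It read 11.77, 11.72 and 11.62 ipsilaterally on day 14, against 11.21, 11.19 and 11.22 contralaterally, and 11.54, 11.51 and 11.43 on day 3, against 11.48, 11.32 and 11.45. The hemispheres were separate on day 14 and overlapped on day 3, and the difference of 0.50 on day 14 exceeded that of 0.08 on day 3 by 0.42 ± 0.12 (adjusted p = 0.0276). With quantile normalization the day 3 difference at 12 months was -0.10.

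At 3 months the hemisphere difference was smaller on day 14 for 1 member and larger for none (1.24% and 2.57% of all genes), and at an unadjusted p under 0.05 it was smaller for 5 and larger for 5, against 6.8% and 10.6% of all genes. The 1 member was Ndufv2, an iron-sulfur subunit of the NADH-oxidising part of complex I. It read 7.06, 6.97 and 6.91 ipsilaterally on day 14, against 6.52, 6.80 and 6.65, and 7.26, 7.36 and 7.44 on day 3, against 6.49, 6.37 and 6.53. Both pairs were separate. The difference of 0.32 on day 14 was below that of 0.89 on day 3 by -0.57 ± 0.14 (adjusted p = 0.0169). At 12 months Ndufv2 moved in the same direction without being called (-0.39, limma adjusted p = 0.116). So did Ndufa12 (-0.47, 0.119) and Ndufa1 (0.28, 0.189) at 3 months. Of the other members called at 12 months, Atp5f1a (0.05) and Uqcrc1 (0.02) went the other way at 3 months. Whether this change between days differs between ages was not tested.

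Between ages, no member's hemisphere difference was called by limma on day 14 (0% of all genes higher and 0.00857% lower), while 10 were smaller and none larger at an unadjusted p under 0.05, against 5.09% and 3.86% of all genes. On day 3, 1 member was called larger at 12 than at 3 months and none smaller (1.42% and 0.154% of all genes), with 5 and none at an unadjusted p, against 9.02% and 3.99%. It was Cox6a2, whose difference of 1.63 at 12 months exceeded that of 0.50 at 3 months by 1.14 ± 0.24 (adjusted p = 0.0103). With quantile normalization this was 0.93 (adjusted p = 0.0839). Among sham samples 8 members were higher and 6 lower at 12 than at 3 months (7.47% and 5.52% of all genes), led by the assembly factor Sdhaf1 at 0.89 and Uqcrb of complex III at -0.50. These groups differ in the number of the sample codes too. The split was 16 and 5 with quantile normalization and 4 and 11 with centring, while the shares of all genes are those without these scalings.

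Of the members, 11 had further probe sets, and these gave differences between -0.05 and 1.02 in the 4 hemisphere comparisons, below 0 in 1 case (Ndufv3 at 3 months on day 3). Values of the pseudogenes Ndufs6-ps1 and Cox6c-ps1 cannot be told apart from signal of their parent genes here.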

How the data were processed

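The deposited values are log2 signals per probe set, which the authors made with RMA in Affymetrix Expression Console, per the submitters' processing notes (no versions stated). RMA corrects background, quantile-normalizes and summarises probes; no source used here says if the 30 Affymetrix Rat Gene 1.0 ST arrays went through it together. Of 29214 probe sets, 15310 carried 1 gene symbol.

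limma 3.58.1 in R 4.3.3 was fitted to 10 group means (20 residual degrees of freedom), on 1 probe set per gene above the array's 30th percentile on at least 3 arrays (11675 genes), with Benjamini-Hochberg adjustment within each of 21 comparisons. The members and gene lists were chosen with earlier results of these data known. Named members were those with the largest and smallest mean hemisphere difference in each complex, those called lower, those whose hemisphere effect differed between days or ages, and isoform pairs. The sample codes pair both hemispheres of 12 animals; deviations of paired samples correlated at -0.08 to 0.21. On simulated data for the 3-month day 3 hemisphere comparison (11675 genes), 67 of 100 changes of 0.5 and 97 of 100 changes of 1 were recovered, with 8 false calls. The simulation drew independent normal noise and changed no other genes. In the real comparison 11.5% of all genes were called higher and 8.95% lower, so recovery there can differ. Alternatives were quantile normalization, centring, other filters, other priors, the animal as a block, only the arrays compared and each replicate left out.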

Additional observations from a re-analysis of the deposited data

Results flagged for a closer look

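For 10 members the difference between hemispheres itself differed between days or ages by limma's test of that difference. At 12 months, day 14 minus day 3, it was -0.76 for Ndufa12, -0.75 for Ndufaf1, -0.62 for Atp5f1a, -0.59 for Atp5po, -0.51 for Cox7b, -0.45 for Cox7a2, -0.44 for Uqcrc1 and 0.42 for Ndufa1. At 3 months it was -0.57 for Ndufv2. Between 12 and 3 months on day 3 it was 1.14 for Cox6a2.

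Ndufa12 passed the threshold under all 10 settings tried, and Ndufaf1 under the 9 that measured it. The stricter filter, at the 50th percentile, removed Ndufaf1. Both passed without any 1 of 12 arrays, with limma adjusted p up to 0.0244 and 0.0475. The call of Cox7b was lost in 11 of 12 cases with 1 array left out, that of Uqcrc1 in 9, those of Atp5po and Ndufa1 in 7, that of Atp5f1a in 4, that of Cox7a2 in 3 and that of Ndufv2 in 1. Cox6a2 passed in all 12. Among other settings, quantile normalization ended the calls of Cox6a2 (adjusted p = 0.0839), Cox7a2 (0.0791), Cox7b (0.06) and Uqcrc1 (0.0754). Centring ended those of Cox7b (0.0826) and Uqcrc1 (0.0592). Cox7b was also lost with no low-value filter (0.0565), Uqcrc1 with the animal as a fixed replicate block (0.0687) and Ndufv2 with only the arrays compared (0.068).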

How the results depend on the processing

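The 4 hemisphere counts and complex differences kept their direction under all settings tried. Arrays of 3 per group limit what can be called, and members near the 30th percentile (Ndufaf1, Cox4i2, Cox8c, Cox6c-ps1) have little signal over background. With the animal as a random replicate block the hemisphere counts were 55, 73, 67 and 69, and as a fixed block 55, 73, 68 and 68 (12 months on days 14 and 3, 3 months on days 14 and 3). Of 1005 values of single members under other settings, 966 kept their call and direction, 30 lost the call, 5 gained it and 4 changed sign. The cause of the changes below was not tested, and shares of all genes under these settings are not given.

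Under quantile normalization the mean hemisphere difference at 12 months on day 3 was 0.48 for complex I, 0.63 for III, 0.47 for IV and 0.52 for V. At 3 months on day 14 it was 0.40 for I, 0.51 for III, 0.29 for IV and 0.43 for V, and on day 3 it was 0.36 for IV. Centring gave 0.48 for I, 0.31 for II, 0.48 for IV and 0.56 for V at 12 months on day 3. The stricter filter gave 0.49 for II and 0.72 for IV there, and for IV 0.45 at 12 months on day 14 and 0.49 and 0.58 at 3 months on days 14 and 3. Subunits alone gave 0.35 and 0.60 for II at 12 months on days 14 and 3 and 0.47 at 3 months on day 3. The span of levels over the 10 groups was 0.88, 0.68, 1.06, 0.69 and 0.96 for complexes I to V with centring and 0.82, 0.77, 0.96, 0.71 and 0.87 with quantile normalization.

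For contralateral against sham, quantile normalization gave 18 called members at 3 months on day 14 and 31 on day 3. At 12 months on day 3 the count was 3 with only the arrays compared, 9 with only 1 sample-code number and 8 with a trended prior. For day 14 against day 3, contralateral members called at 12 months were 2 with quantile normalization and 1 with either a trended prior or 1 sample-code number. At 3 months there were 0 contralaterally and 8 ipsilaterally with only the arrays compared. For the change of the hemisphere difference between days, quantile normalization called 5 members at 12 months and 2 at 3 months, and only the arrays compared called 0 at 3 months. Between ages on day 3, quantile normalization called 0.

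Leaving out 1 array gave 41 to 50, 68 to 72, 61 to 66 and 59 to 70 called members between hemispheres (same order). Against sham it gave 53 to 60, 72 to 73, 31 to 35 and 38 to 46 ipsilaterally and 0, 0 to 14, 30 to 38 and 44 to 55 contralaterally. Day 14 against day 3 gave 41 to 56 and 10 to 16 ipsilaterally and 0 to 2 and 2 to 12 contralaterally, at 12 and 3 months. The hemisphere difference gave 2 to 9 and 0 to 2 between days at 12 and 3 months and 0 and 1 between ages on days 14 and 3, and age in sham gave 8 to 11. Members that changed sign were not called: Cox4i2 (-0.08 to 0.15 at 12 months on day 3, -0.03 with centring, and -0.25 to 0 at 3 months on day 3), Ndufaf1 (-0.18 to 0.05 at 12 months on day 14) and Ndufaf4 (-0.02 to 0.13 at 3 months on day 14, -0.02 with quantile normalization). Sdhaf3 ran from -0.12 to 0.05 at 12 months on day 14, from -0.01 to 0.14 at 3 months on day 14 and from -0.07 to 0.01 on day 3. Ndufa1 at 12 months on day 3 was -0.02 with centring and -0.10 with quantile normalization.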
